A study of Mus musculus with 9 samples.

Results

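The BCL-2 family genes Bcl2, Bcl2l1, Bax and Bid, the initiator caspase Casp8, the death receptor Fas and the adaptors Traf2 and Traf3 were examined in CD8+ OT-1 T cells after culture with antigen-bearing macrophages, with or without glioma cells. The 8 genes were chosen by name for their place in the control of T cell death, with earlier results of these data known. All 8 were among the 750 genes counted, under their current RefSeq symbols. OT-1 mice are transgenic for a receptor that makes their CD8+ T cells recognize SIINFEKL, a peptide of ovalbumin (OVA). In all 3 groups, splenocytes of OT-1 mice had first been cultured with 1 µM of that peptide and 50 IU/mL interleukin-2 (IL-2) for 48 h, and the CD8+ cells were then purified and expanded in IL-2 for a total of 4 days. In the group with macrophages and tumor, T cells were held for 24 h with bone marrow-derived macrophages, which had been given 10 µM OVA peptide for 4 h, and with CT2A-TRP2-β2mKO cells, a mouse glioma line that expresses the antigen TRP2 and, having lost β2-microglobulin, displays no MHC-I. In the group with macrophages, T cells were held with the loaded macrophages only. In the group called OT-1 alone, T cells were cultured by themselves. Each group had 3 samples, and CD8+ cells were sorted before RNA was counted with the nCounter PanCancer Immune Profiling Panel, which counts barcoded probes hybridized to RNA without amplification. The labels give 10 T cells per tumor cell and 5 per macrophage, whereas the study's methods state lower ratios of T cells. The design text calls the reference T cells naïve, whereas the culture protocol describes peptide-primed cells. The methods name IL-2 in the medium of OT-1 alone and do not say whether the co-cultures had it, so any part of IL-2 in the differences from OT-1 alone cannot be told apart from that of the other cells. The methods describe the mice of the study as female and within a stated range of weeks of age, without an age for the donors of these cells. They name 3 kinds of bone marrow donor (C57BL/6, CD45.1 and β2mKO mice) without saying which gave the macrophages used here, and they describe single-cell sorting of the knockout tumor cells without saying how many clones were kept. The samples of a group are called replicates here, although nothing states that they came from separate mice, so the p-values below measure only the spread between these samples, which may be technical.

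The deposited values were log2 normalized counts. Their steps gave back whole counts, with totals of 697679 to 1186202 in 8 samples and 131964 in macrophages replicate 2, in which 1 counted molecule was worth 6.38 normalized counts, against 0.681 to 1.36 in the other 8. Macrophages replicate 2 also stood apart by its background, with a median over all genes of 7.80, against 6.10 to 6.88 in the other 8 samples. The T cell list (10 of 10 genes measured, none at 0, including Cd3e and Cd8a) had a median log2 level of 12.3 to 12.4 with macrophages and tumor, 12.0 to 12.3 with macrophages and 11.64 to 11.65 in OT-1 alone. The macrophage list (21 of 22 genes measured, none at 0) had a median of 4.69 to 5.10 with macrophages and tumor, 4.65 to 6.58 with macrophages and 4.03 to 4.47 in OT-1 alone. The tumor or mesenchymal list (15 of 18 measured, none at 0) had a median of 4.88 to 5.24 with macrophages and tumor, 4.55 to 7.07 with macrophages and 4.20 to 4.76 in OT-1 alone. A B cell list, which no group was set up to contain, had a median of 4.11 to 4.58 with macrophages and tumor, 4.39 to 6.30 with macrophages and 3.94 to 4.21 in OT-1 alone. The highest value of each of these 3 lists was that of macrophages replicate 2. Their part in the differences below was not tested.

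Apoptosis is started along a pair of routes that meet at the executioner caspases. In the death receptor route, Fas ligand on a neighboring cell clusters Fas, the adaptor FADD joins it, and caspase-8 is activated there. In the mitochondrial route, Bax opens pores in the outer mitochondrial membrane, Bcl-2 and Bcl-xL (the product of Bcl2l1) hold it in check, and Bid, once cut by caspase-8, carries the signal from the receptor to the mitochondrion. TRAF2 and TRAF3 sit on the tails of tumor necrosis factor (TNF) receptors, where TRAF3 holds down the non-canonical NF-κB pathway by keeping the kinase NIK unstable, and TRAF2 recruits the ubiquitin ligases that this requires. In CD8+ T cells, the balance of these genes is known to set how many cells survive after activation and how many are lost as the response contracts.

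Stretches directly upstream of a start annotated for Fas, Bcl2 and Traf3 are shown because Traf3 and Bcl2 carried the calls below, Fas varied most among the 8 genes, and each held a match to a motif of a factor active in stimulated T cells. The sequences are from RefSeq (GRCm38.p6), 5′ to 3′ on the gene's strand, in lower case with motif matches in capitals. The Fas stretch is chr19:34290409-34290646 (plus strand), the Bcl2 stretch chr1:106714291-106714540 (minus strand) and the Traf3 stretch chr12:111166340-111166369 (plus strand). The Traf3 stretch ends before an annotated start at 111166370, which lies downstream of the gene's outermost annotated start at 111166321, so it falls within the annotated span of the gene.
Fas: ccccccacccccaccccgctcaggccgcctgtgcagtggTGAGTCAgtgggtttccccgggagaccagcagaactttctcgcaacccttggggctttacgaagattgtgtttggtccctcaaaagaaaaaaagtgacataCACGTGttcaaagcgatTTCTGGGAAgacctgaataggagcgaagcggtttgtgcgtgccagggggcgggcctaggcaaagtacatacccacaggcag
Bcl2: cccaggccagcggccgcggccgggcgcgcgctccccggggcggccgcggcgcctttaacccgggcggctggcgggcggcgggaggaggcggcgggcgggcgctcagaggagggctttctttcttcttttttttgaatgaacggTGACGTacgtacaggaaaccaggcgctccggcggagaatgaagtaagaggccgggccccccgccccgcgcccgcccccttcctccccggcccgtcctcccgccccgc
Traf3: cgcgcgcccaggcggcccgcGGGGATTTCC
Both strands of the 250 bases before each annotated start were searched, in 10 windows for the 8 genes (Bcl2l1 had 3) and in 32851 windows over the genome, and no match shown overlapped another. Fas held TGANTCA, the letters of an AP-1 site (in 6.75% of all windows), then CACGTG, an E-box (6.02%), and TTCNNNGAA, the letters of a STAT site (7.02%). Bcl2 held TGACGT, the core of a cAMP response element (6.47%), which was also found before Traf2. Traf3 held GGGGATTTCC, a match to the κB motif of NF-κB (3 G, any 2 bases, 3 T and 2 C; in 1.41%), directly before the start at 111166370, and 1 of the windows of Bcl2l1 also matched that motif. Bax held the E-box, and none of the 5 motifs was found before Bid or Casp8. A match describes the letters only and is neither a bound site nor a cause of any value below.

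**Figure D1:**
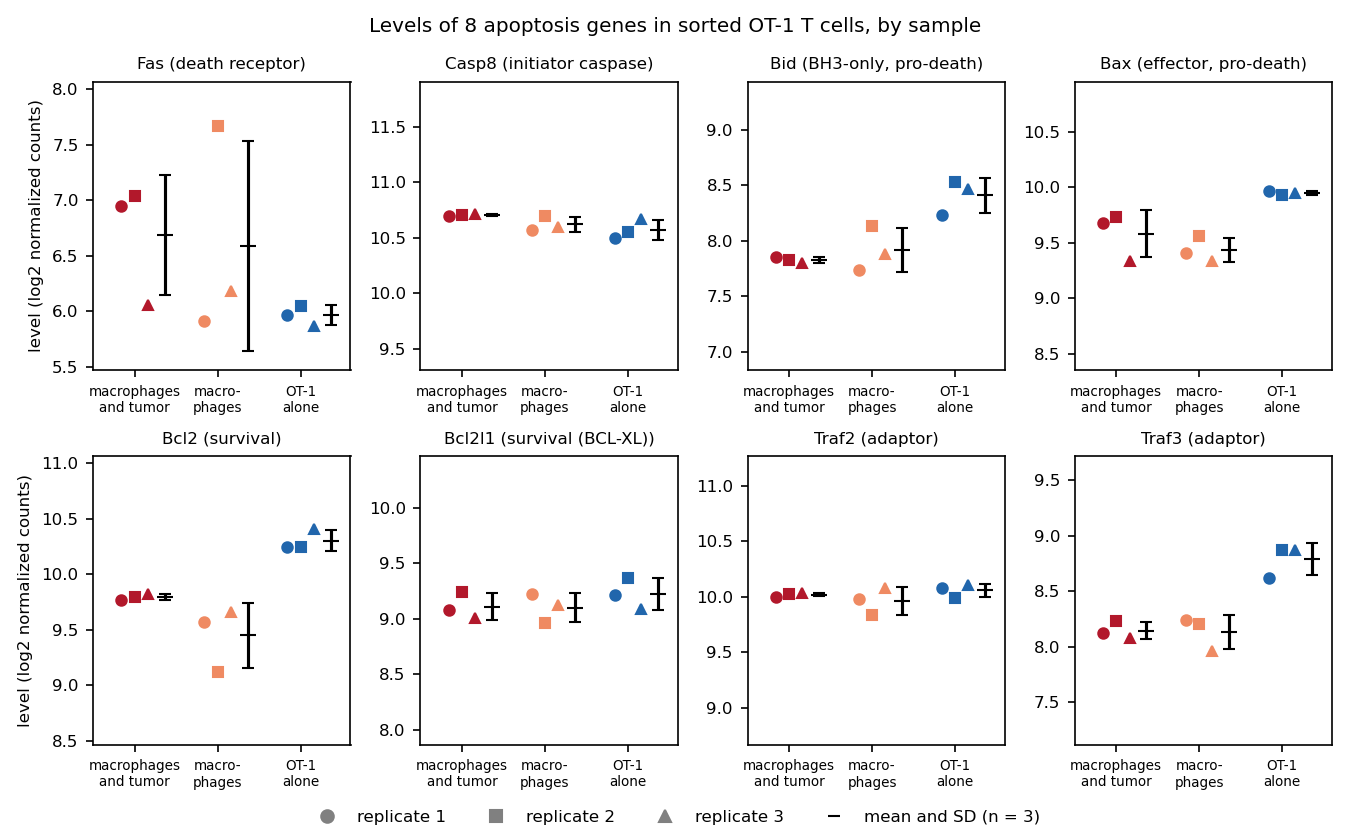
Level of each of the 8 genes (y axis, log2 normalized counts, with the same span of the axis in every panel) in each of the 9 samples. Symbols mark replicates, colors mark groups, and black bars show the mean and SD of 3 samples; Traf3, Bcl2, Bax and Bid lay lower in every co-culture sample than in OT-1 alone, and Fas was highest in macrophages replicate 2, at 7.67.

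Traf3 was lower in both kinds of co-culture than in OT-1 alone, and it was the 1 gene of the 8 that passed in both comparisons. Traf3 (chromosome 12, 111166321 to 111267155) had log2 levels of 8.12, 8.23 and 8.08 with macrophages and tumor, 8.24, 8.20 and 7.96 with macrophages, and 8.62, 8.87 and 8.87 in OT-1 alone. All 6 co-culture samples lay below all 3 samples of OT-1 alone, and the 2 co-culture groups overlapped. Traf3 fell by 36.0% with macrophages and tumor (log2 fold change −0.64, SE 0.11, adjusted p = 0.0303) and fell by 36.4% with macrophages (−0.65, SE 0.11, adjusted p = 0.0305; limma with Benjamini-Yekutieli adjustment over 750 genes, here and below). The 2 co-cultures differed by 0.01 in Traf3 (95% interval −0.26 to 0.28). With macrophages and tumor, the call was lost without any 1 sample of that group (adjusted p of 0.152, 0.0904 and 0.140) or without OT-1 alone replicate 2 or 3 (0.168 and 0.154). With macrophages, it was lost without any sample of the group with macrophages and tumor (0.0803, 0.0674 and 0.0629), which enters through the shared spread, without macrophages replicate 1 or 3 (0.0636 and 0.105), and without OT-1 alone replicate 2 or 3 (0.162 and 0.150).

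Traf2, which encodes the partner of TRAF3, differed little between groups on the deposited scale. Traf2 (chromosome 2, 25517982 to 25546940) had log2 levels of 10.00, 10.02 and 10.03 with macrophages and tumor, 9.98, 9.83 and 10.08 with macrophages, and 10.08, 9.99 and 10.10 in OT-1 alone. Every pair of groups overlapped. The difference from OT-1 alone was −0.04 with macrophages and tumor (95% interval −0.24 to 0.16) and −0.09 with macrophages (−0.29 to 0.11), so that on this scale a change as large as that of Traf3 lay outside both intervals. Under other scalings Traf2 stood lower: with macrophages and tumor it was −0.55 after median centring, −0.36 after quantile normalization and −0.25 after total scaling, and with macrophages −0.79, −0.20 and −0.13 by the same methods.

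Bcl2, the first described survival gene of the family, was lowest with macrophages. Bcl2 (chromosome 1, 106538176 to 106714290) had log2 levels of 9.77, 9.80 and 9.82 with macrophages and tumor, 9.57, 9.12 and 9.66 with macrophages, and 10.25, 10.25 and 10.41 in OT-1 alone. The 3 groups did not overlap, with OT-1 alone highest and macrophages lowest. With macrophages, Bcl2 fell by 44.6% (log2 fold change −0.85, SE 0.14, adjusted p = 0.0272). With macrophages and tumor, its log2 fold change was −0.51 (SE 0.14, adjusted p = 0.272), which did not pass. That difference passed in 8 of 22 alternative analyses, among them the methods' t-test (adjusted p = 0.0305). The lowest value, 9.12 in macrophages replicate 2, rested on 87 recovered counts (counting error 10.7%). Without that sample, the log2 fold change with macrophages was −0.69 (adjusted p = 0.00449), and that with macrophages and tumor passed (−0.51, adjusted p = 0.00784). The call with macrophages was lost without any 1 of the other samples except macrophages replicate 3, with adjusted p of 0.0631 to 0.133.

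Bcl2l1, which encodes Bcl-xL, showed smaller differences than Bcl2 and passed in no comparison. Bcl2l1 (chromosome 2, 152758732 to 152833803) had log2 levels of 9.08, 9.24 and 9.01 with macrophages and tumor, 9.22, 8.96 and 9.12 with macrophages, and 9.21, 9.37 and 9.09 in OT-1 alone. All pairs of groups overlapped. Its log2 fold change was −0.11 with macrophages and tumor (95% interval −0.38 to 0.16) and −0.12 with macrophages (−0.39 to 0.15). After median centring these were −0.62 and −0.82, and after quantile normalization −0.47 and −0.37.

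Both pro-death genes of the BCL-2 family were lower in every co-culture sample than in any sample of OT-1 alone, and neither passed the test. Bax, the pore-forming member (chromosome 7, 45461695 to 45466903), had log2 levels of 9.68, 9.73 and 9.34 with macrophages and tumor, 9.41, 9.56 and 9.34 with macrophages, and 9.97, 9.93 and 9.95 in OT-1 alone. OT-1 alone spanned 0.04 on the log2 scale, against 0.39 with macrophages and tumor, where replicate 3 was the low sample. The log2 fold change of Bax was −0.37 with macrophages and tumor (SE 0.12, adjusted p = 0.444) and −0.51 with macrophages (SE 0.12, adjusted p = 0.117). Without replicate 3 of the group with macrophages and tumor, which enters through the shared spread, Bax passed with macrophages (−0.51, adjusted p = 0.0378). Bid, the link between caspase-8 and the mitochondrion (chromosome 6, 120893119 to 120917062), had log2 levels of 7.85, 7.83 and 7.80 with macrophages and tumor, 7.74, 8.13 and 7.88 with macrophages, and 8.23, 8.53 and 8.47 in OT-1 alone. The gap between groups was narrowest at macrophages replicate 2, whose value rested on 44 recovered counts (counting error 15.1%). The log2 fold change of Bid was −0.58 with macrophages and tumor (SE 0.13, adjusted p = 0.0773) and −0.49 with macrophages (SE 0.13, adjusted p = 0.165). Without macrophages replicate 2, Bid passed with macrophages and tumor at the same size (adjusted p = 0.0190), and with macrophages at −0.60 (adjusted p = 0.0335).

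Casp8 was among the steadiest of the 8 genes. Casp8 (chromosome 1, 58795233 to 58847503) had log2 levels of 10.70, 10.71 and 10.72 with macrophages and tumor, 10.57, 10.70 and 10.60 with macrophages, and 10.50, 10.55 and 10.67 in OT-1 alone. The samples with macrophages and tumor lay above all those of OT-1 alone, while the samples with macrophages overlapped both other groups. The log2 fold change was 0.14 with macrophages and tumor (95% interval −0.04 to 0.32, adjusted p = 1) and 0.05 with macrophages (−0.13 to 0.23, adjusted p = 1). Its direction against OT-1 alone depended on the scaling: with macrophages and tumor it was −0.37 after median centring, −0.14 after quantile normalization and −0.07 after total scaling, and with macrophages −0.65, −0.02 and 0.01 by the same methods.

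Fas varied more between samples of 1 group than between groups. Fas (chromosome 19, 34290647 to 34327775) had log2 levels of 6.95, 7.04 and 6.06 with macrophages and tumor, 5.91, 7.67 and 6.18 with macrophages, and 5.97, 6.05 and 5.87 in OT-1 alone. These rested on 118, 115 and 49 recovered counts with macrophages and tumor, 72, 32 and 69 with macrophages, and 92, 93 and 52 in OT-1 alone. In the group with macrophages and tumor, 2 samples stood well above OT-1 alone and the third stood 0.01 above its highest sample, and in the group with macrophages the high sample was the shallow one, in which the macrophage, tumor and B cell lists were also highest. The log2 fold change was 0.72 with macrophages and tumor (SE 0.48, 95% interval −0.40 to 1.84, adjusted p = 1) and 0.62 with macrophages (SE 0.48, 95% interval −0.50 to 1.75, adjusted p = 1). Without macrophages replicate 2, the difference with macrophages was 0.08, and after median centring and quantile normalization it was −0.07 and −0.08. Fas can also be expressed by macrophages and tumor cells, and their part in these values was not tested. In sorted bulk samples, fewer cells that express a gene and less RNA of it per cell cannot be told apart, for Fas as for the other genes.

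**Figure D2:**
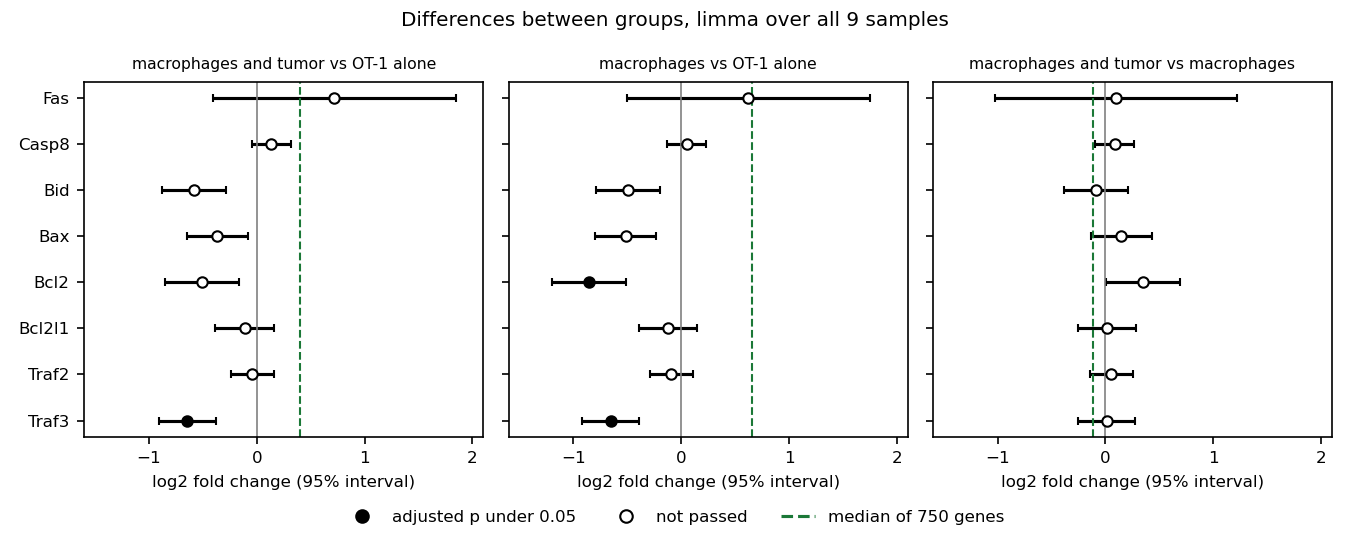
Log2 fold change of each gene (points) with its 95% interval (bars) in the 3 comparisons, from limma over all 9 samples. Filled points passed an adjusted p of 0.05, which were Traf3 in the first comparison and Traf3 and Bcl2 in the second; the dashed line is the median over 750 genes, 0.40, 0.66 and −0.12 from left to right.

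Of the 8 genes, 1 was called lower and 0 higher with macrophages and tumor relative to OT-1 alone (18.4% of all 750 genes were called, 14.5% higher and 3.87% lower). With macrophages against OT-1 alone, 2 were called lower and 0 higher (18.4% of all genes, 11.9% higher and 6.53% lower). These 2 comparisons share the 3 samples of OT-1 alone. At an unadjusted p of 0.05, 4 of the 8 genes passed in each (35.9% of all genes with macrophages and tumor, 44.8% with macrophages). In the first comparison, 4 genes had all samples below (13.6% of all genes) and 2 all samples above (43.5%), and in the second, 4 had all samples below (15.1%) and 0 all above (38.0%). Bcl2, Bax, Bid and Traf3 were the 4 in both. The smallest p that an exact permutation test (two-sided) can give for 3 against 3 samples is 0.1. It is reached wherever the groups do not overlap, so it adds nothing to the shares above. These 4 genes reached it in both comparisons, and Casp8 and Fas reached it with macrophages and tumor. The median log2 fold change of the 8 genes was −0.24 with macrophages and tumor and −0.31 with macrophages, while the median of all 750 genes was 0.40 and 0.66. The latter includes genes near the background. With a floor at 20 normalized counts it was 0.23 and 0.51, and over the 645 genes kept by a filter at 20 it was 0.39 and 0.51. Without macrophages replicate 2, the median of all genes with macrophages was 0.20, and that with macrophages and tumor stayed at 0.40. Fold changes after median centring therefore depend on that sample wherever the group with macrophages is compared. The adjusted p-values after median centring depend on it in all 3 comparisons, because the groups share 1 estimate of spread. With macrophages and tumor, the adjusted p of Traf3 was 0.461 after median centring, against 0.0303 on the deposited scale. The part of that sample in the calls lost after median centring was not tested. After median centring, with macrophages and tumor, Traf3 stood at −1.15, Bcl2 at −1.02, Bid at −1.09 and Bax at −0.88, and with macrophages Traf3 stood at −1.35, Bcl2 at −1.55, Bid at −1.19 and Bax at −1.21. Bcl2, Bcl2l1, Bax, Bid, Traf2 and Traf3 were on the lower side of OT-1 alone in both comparisons under the deposited scaling, median centring, quantile normalization and total scaling.

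The question that the tumor cells pose, whether T cells with macrophages and tumor differed from those with macrophages only, gave no call among the 8 genes (0 of 8 by limma after adjustment, 1 of 8 at an unadjusted p of 0.05, against 3.2% of all genes, 2.67% higher and 0.533% lower, and 20.9% unadjusted; 0 of 8 by voom on recovered counts). The unadjusted p was 0.0470 for Bcl2, whose 3 samples with macrophages and tumor all lay above those with macrophages (20.3% of all genes did), by 0.35 on the log2 scale (SE 0.14, 95% interval 0.01 to 0.69, adjusted p = 1). Without macrophages replicate 2 this difference was 0.18. None of the 8 had all samples below (4.67% of all genes), and the other 7 genes overlapped between the co-cultures, with log2 fold changes of −0.09 for Bid, 0.01 for Traf3 and Bcl2l1, 0.05 for Traf2, 0.09 for Casp8, 0.10 for Fas and 0.15 for Bax, each of which changed sign under at least 1 alternative. The interval was widest for Fas, −1.03 to 1.22, and narrowest for Casp8, −0.09 to 0.27.

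Because a scaling factor is common to all genes of a sample, the difference between a pair of genes within a sample does not depend on it; these differences are given as descriptions with no test, and, since probes differ, only their change between groups can be read. Of 10 pairs computed, 4 were picked with their values in view and are given by sample. Casp8 minus Bcl2 was 0.93, 0.91 and 0.90 on the log2 scale with macrophages and tumor, 1.00, 1.58 and 0.94 with macrophages, and 0.25, 0.30 and 0.26 in OT-1 alone. It averaged 0.91 ± 0.02 with macrophages and tumor, 1.17 ± 0.35 with macrophages and 0.27 ± 0.03 in OT-1 alone (SD, n = 3 each). The value of 1.58 was that of macrophages replicate 2, whose Bcl2 level rested on 87 recovered counts (counting error 10.7%). The 3 groups did not overlap, but the co-cultures were barely apart, at 0.94 and above with macrophages against 0.93 and below with macrophages and tumor. Bcl2l1 minus Bcl2, the balance of the survival genes, was −0.69, −0.56 and −0.81 with macrophages and tumor, −0.35, −0.16 and −0.54 with macrophages, and −1.04, −0.88 and −1.32 in OT-1 alone. Relative to Bcl2, the Bcl2l1 message was thus higher in both co-cultures, though Bcl2l1 itself overlapped OT-1 alone (−0.11 and −0.12). Bcl2 changed by −0.51 with macrophages and tumor and −0.85 with macrophages, and every pair with Bcl2 shares those changes. The 3 groups did not overlap, with −0.54 the lowest value with macrophages and −0.56 the highest with macrophages and tumor. How many of all 750 genes would lie apart from OT-1 alone when set against Bcl2 was not computed. Bax minus Bcl2, the balance of a death gene and its inhibitor, was −0.09, −0.07 and −0.48 with macrophages and tumor, −0.16, 0.44 and −0.32 with macrophages, and −0.28, −0.32 and −0.46 in OT-1 alone. Its groups overlapped in all 3 comparisons, with a mean of −0.21 ± 0.23 with macrophages and tumor, −0.01 ± 0.40 with macrophages and −0.35 ± 0.09 in OT-1 alone (SD, n = 3 each). Traf3 minus Traf2 was −1.88, −1.79 and −1.95 with macrophages and tumor, −1.74, −1.63 and −2.12 with macrophages, and −1.46, −1.12 and −1.23 in OT-1 alone. Both co-cultures lay below OT-1 alone in every sample, and overlapped each other. Of the other 6 pairs, Fas minus Bcl2 lay above OT-1 alone in every co-culture sample, and Fas minus Bcl2l1 did so with macrophages and tumor but overlapped OT-1 alone with macrophages. Bid minus Bcl2l1 lay below OT-1 alone in every sample with macrophages and tumor (by 0.47 in the mean, −1.28 ± 0.11 against −0.81 ± 0.18, SD, n = 3 each) and overlapped it with macrophages. Bid minus Bcl2 overlapped OT-1 alone in both comparisons and was lower with macrophages and tumor than with macrophages in every sample. Bax minus Bcl2l1 and Casp8 minus Bcl2l1 overlapped between all groups.

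**Figure D3:**
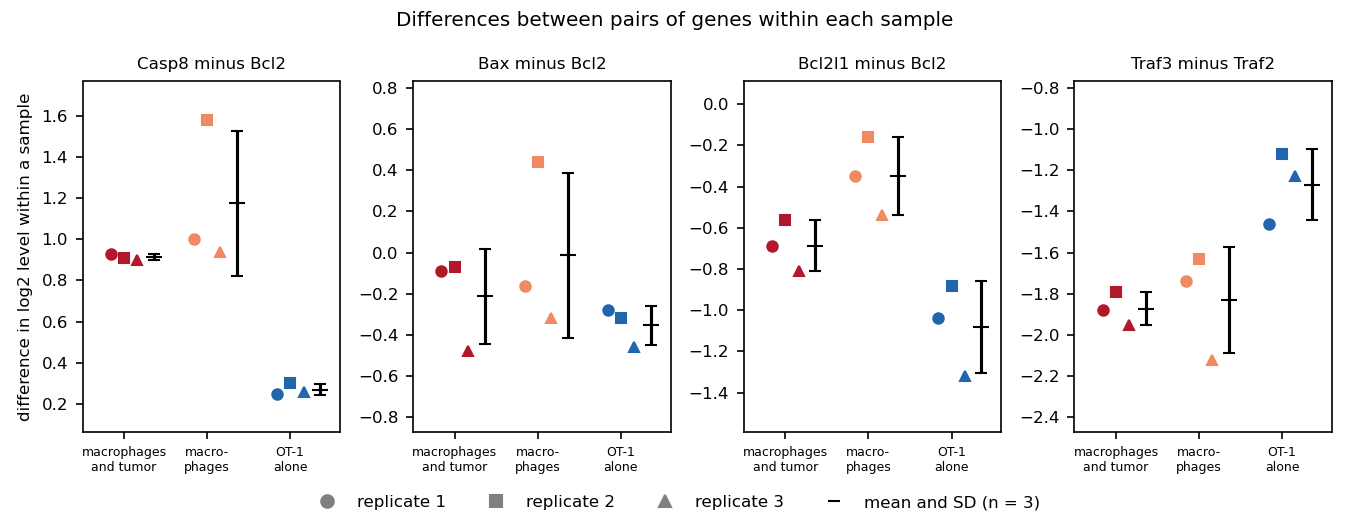
Difference between the log2 levels of a pair of genes within each sample (y axis) for 4 pairs, with the same span of the axis in every panel. Symbols mark replicates and black bars the mean and SD of 3 samples; Casp8 minus Bcl2 lay at 0.90 or above in all co-culture samples and at 0.30 or below in OT-1 alone, whereas Bax minus Bcl2 overlapped.

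Of 60 other genes listed for these pathways, 20 were measured. With macrophages and tumor relative to OT-1 alone, 5 were called higher and 2 lower (14.5% and 3.87% of all genes). With macrophages against OT-1 alone, 4 were called higher and 3 lower (11.9% and 6.53%), and between the co-cultures 1 was called higher and 0 lower (2.67% and 0.533%). No further BCL-2 family gene (0 of 14 listed) and no apoptosome or mitochondrial gene (0 of 5) was measured, so the family could be read only through the 4 genes above. Cflar, the decoy that competes with caspase-8, was not analysed here.

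Among ligands, Fasl, the partner of Fas, had log2 levels of 9.64, 9.66 and 9.82 with macrophages and tumor, 9.50, 9.39 and 9.39 with macrophages, and 9.81, 9.83 and 9.78 in OT-1 alone. The samples with macrophages lay below both other groups, and no comparison passed on the deposited scale (−0.10 with macrophages and tumor, adjusted p = 1; −0.38 with macrophages, adjusted p = 0.0666). The difference with macrophages passed after quantile normalization (−0.56, adjusted p = 0.0133) and total scaling (−0.42, adjusted p = 0.04). Between the co-cultures, all 3 samples with macrophages and tumor had more Fasl than those with macrophages, by 0.28 on average (SE 0.08, adjusted p = 0.620). Tnfsf10, which encodes the death ligand TRAIL, rose in both (log2 fold change 0.58 with macrophages and tumor, adjusted p = 0.0223; 0.76 with macrophages, adjusted p = 0.00639) on the deposited scale. Its call with macrophages and tumor was lost under each other scaling (0.07 after median centring, 0.24 after quantile normalization and 0.37 after total scaling, adjusted p = 1, 0.246 and 0.175), and its call with macrophages was lost after median centring (0.06, adjusted p = 1). Lta, which encodes the TNF-related ligand lymphotoxin-α, fell in both. Lta had log2 levels of 7.25, 7.22 and 7.16 with macrophages and tumor, 7.56, 7.84 and 7.43 with macrophages, and 8.71, 8.99 and 8.90 in OT-1 alone. The 3 groups did not overlap, and Lta changed by −1.66 with macrophages and tumor (SE 0.13, adjusted p = 0.000463) and −1.26 with macrophages (SE 0.13, adjusted p = 0.00226).

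Of the TNF receptors, Tnfrsf1a, which encodes the receptor with a death domain, had log2 levels of 8.76, 8.63 and 8.67 with macrophages and tumor, 8.70, 8.86 and 8.62 with macrophages, and 9.25, 9.24 and 9.34 in OT-1 alone. It fell in both (−0.59, adjusted p = 0.0123 with macrophages and tumor; −0.55, adjusted p = 0.0213 with macrophages), and both calls were lost after median centring, at −1.10 and −1.25 (adjusted p = 0.532 and 0.191). Tnfrsf1b, which encodes the receptor that binds TRAF2 directly and lacks a death domain, had log2 levels of 10.48, 10.43 and 10.52 with macrophages and tumor, 10.06, 10.05 and 10.09 with macrophages, and 9.89, 9.91 and 10.05 in OT-1 alone. The log2 fold change was 0.53 with macrophages and tumor, which passed (adjusted p = 0.00932), and 0.12 with macrophages, which did not (adjusted p = 1). The call was lost after median centring (0.02, adjusted p = 1), quantile normalization (0.18, adjusted p = 0.696) and total scaling (0.32, adjusted p = 0.0794), and the value with macrophages was −0.58 after median centring. Its 3 samples with macrophages and tumor also lay above all 3 with macrophages, by 0.41 on average, without passing (adjusted p = 0.102).

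Downstream of the receptors, Fadd, the adaptor between Fas and caspase-8, overlapped between all groups (log2 fold change 0.06 with macrophages and tumor and 0.23 with macrophages, adjusted p = 1 in both), with the sign turned after median centring and quantile normalization. Nfkb2, whose product is processed in the pathway that TRAF3 restrains, had log2 levels of 11.26, 11.23 and 11.17 with macrophages and tumor, 11.02, 10.80 and 10.96 with macrophages, and 10.34, 10.35 and 10.52 in OT-1 alone. The 3 groups did not overlap. Nfkb2 rose by 0.82 on the log2 scale with macrophages and tumor (adjusted p = 0.00311) and by 0.52 with macrophages (adjusted p = 0.0305), and after median centring neither passed (0.31 and −0.17, adjusted p = 1 in both).

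Among regulators of inhibition, Tnfaip3 (the ubiquitin-editing enzyme A20, a brake on NF-κB) was the 1 listed gene called in all 3 comparisons, at 2.62 with macrophages and tumor relative to OT-1 alone, 1.35 with macrophages against OT-1 alone and 1.27 between the co-cultures (adjusted p = 3.46e-05, 0.000566 and 0.00350). Xaf1, an interferon-induced antagonist of the inhibitor XIAP, rose by 1.12 with macrophages and tumor and 0.88 with macrophages (adjusted p = 0.00470 and 0.0162). After median centring, Xaf1 passed in neither comparison (0.61 and 0.19, adjusted p = 1 in both), and Tnfaip3 passed neither with macrophages (0.66, adjusted p = 1) nor between the co-cultures (1.46, adjusted p = 0.752). The Tnfaip3 call between the co-cultures was also lost in a fit of only the 2 groups and by the methods' t-test. Both called 0 of 750 genes in that comparison, whereas the main fit takes part of its spread from OT-1 alone. Cdkn1a, which encodes the cell cycle inhibitor p21, had log2 levels of 9.95, 10.08 and 8.83 with macrophages and tumor, 8.79, 9.08 and 8.45 with macrophages, and 10.69, 10.67 and 10.62 in OT-1 alone. Replicate 3 was the low sample with macrophages and tumor, as it was for Bax. Cdkn1a fell by 1.89 with macrophages (adjusted p = 0.0318), and its log2 fold change with macrophages and tumor was −1.04 (adjusted p = 0.408). When each of the 9 samples was left out in turn, the calls with macrophages and tumor stood in 9 of 9 fits for Lta, Nfkb2, Tnfaip3 and Xaf1, in 6 for Tnfrsf1b, in 4 for Tnfrsf1a and in 2 for Tnfsf10. The calls with macrophages stood in 9 of 9 fits for Lta, Tnfaip3 and Tnfsf10, in 5 for Xaf1, in 3 for Tnfrsf1a and Cdkn1a and in 1 for Nfkb2.

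**Figure D4:**
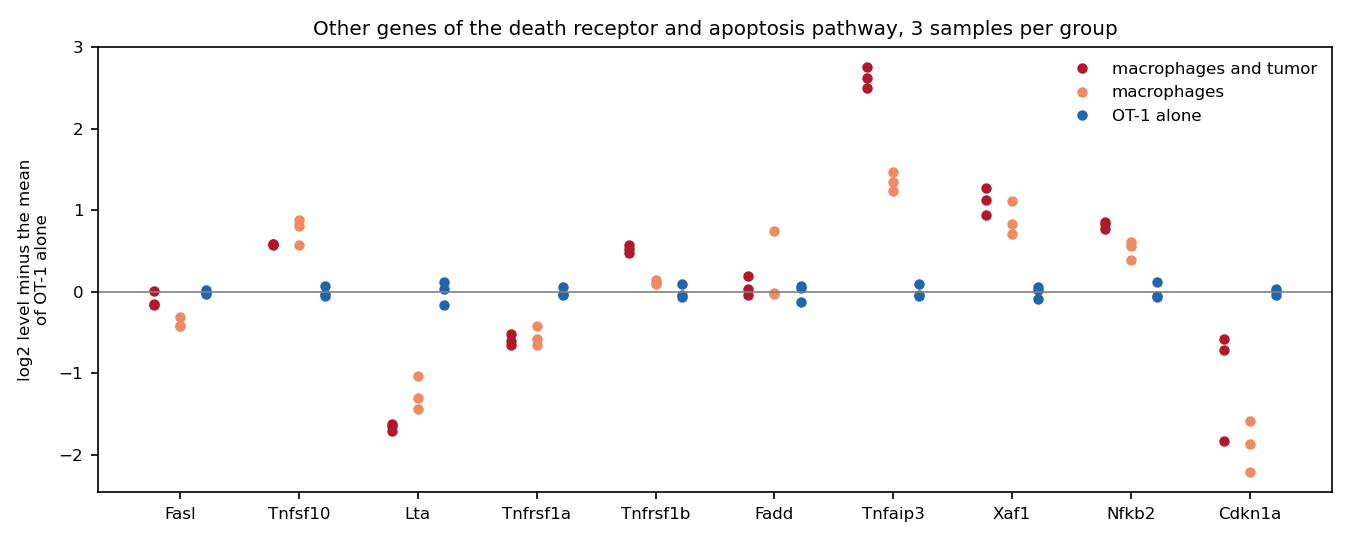
Levels of 10 other genes of the pathway in each sample, as the log2 level minus the mean of OT-1 alone (y axis), with 3 samples (points) per group. Lta and Tnfrsf1a lay below 0 in all co-culture samples and Tnfaip3, Xaf1, Nfkb2 and Tnfsf10 above; Cdkn1a spread widely with macrophages and tumor.

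Over the 9 samples, the genes with the profile most like Bax by Pearson's r of log2 levels were Cdkn1a (0.98) and Tnfrsf10b (0.98). For Traf3 they were Il4ra (0.97) and Ccnd3 (0.96), for Bcl2 Pik3cd (0.96) and Il2ra (0.96), and for Bid Ada (0.98) and Cd3eap (0.96). For Fas they were Cklf (0.97) and Tlr3 (0.95), and for Casp8 Relb (0.90) and Csf2 (0.90). Bcl2l1 (Ythdf2, 0.76, and Map2k4, 0.67) and Traf2 (Inpp5d, 0.82, and Ewsr1, 0.82) had no close match, and without macrophages replicate 2 the values for Traf2 were 0.24 and 0.23. Among the 8 genes themselves, Traf3 was the closest to Bid (0.90), Bax (0.87) and Bcl2 (0.78), and Bcl2 was the closest to Traf2 (0.76, and 0.46 without macrophages replicate 2) and to Bcl2l1 (0.51, and 0.23 without that sample), while Fas and Casp8 were closest to each other (0.58). The 9 samples form 3 groups and share their scaling, so these values describe the profiles and carry no test.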

How the data were processed

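RNA of 9 sorted CD8+ T cell samples was counted on an nCounter MAX. Normalization and quality control were done by the authors with nSolver (version 4.0.70), per the methods, and their own tests, not used here, with its Advanced Analysis module (version 2.0.134) and the Benjamini-Yekutieli correction. The deposited table held log2 normalized counts of 750 genes, rounded to 2 decimals; the control genes used for scaling were not given in the sources used here. Since low values were whole multiples of 1 step per sample (100% of them within 0.005 on the log2 scale), counts and totals were recovered from the steps; counting errors cover counting only.

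Groups were taken from the labels. A linear model with a mean for each group was fitted to the log2 values of all 9 samples and 750 genes in limma 3.58.1 (R 4.3.3), with the 3 contrasts and Benjamini-Yekutieli adjustment over 750 genes within each contrast at 0.05, which assumes a spread common to the groups. The fit was tested on simulated data with 1 spread per gene in all samples and no shallow sample. That test therefore cannot show whether the assumed common spread holds. No gene was filtered and no count was added. Members and gene lists were chosen with earlier results of these data known. The genes named were the 8 members, every other listed pathway gene called in at least 1 contrast, the partners Fasl, Tnfsf10 and Fadd, and the genes closest in profile. Symbols were matched to RefSeq (734 of 750 current, 8 synonyms). Alternatives were 3 other scalings, a floor and a filter at 20 normalized counts, 10 added counts, Benjamini-Hochberg adjustment and an intensity trend. Further alternatives were sample quality weights, a fit of the 2 groups compared, a replicate block, an equal-variance t-test and leaving out each sample. That t-test was run here on the log2 values of the 2 groups with Benjamini-Yekutieli adjustment, apart from the authors' own tests. Voom on recovered counts was added, chosen after seeing the data. 1 listed gene is not reported here.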

Additional observations from a re-analysis of the deposited data

How the results depend on the processing

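Over 22 alternatives, Traf3, Bcl2, Bax and Bid kept their direction against OT-1 alone in both comparisons, while the calls moved. With macrophages and tumor relative to OT-1 alone (1 gene of the 8 called), 0 were called after median centring and with the replicate block, 2 after total scaling, 3 with Benjamini-Hochberg adjustment, with an intensity trend and in a fit of only the 2 groups, and 4 after quantile normalization, with sample quality weights (Fas among them, adjusted p = 0.0472) and with voom on recovered counts. With macrophages against OT-1 alone (2 called), 0 were called after median centring, with the block, with only the 2 groups and the equal-variance t-test. In that comparison, 4 were called after quantile normalization, with Benjamini-Hochberg adjustment, with quality weights and with voom. Leaving out 1 sample gave 0 to 3 in each of these 2 comparisons, the 3 without macrophages replicate 2. Between the co-cultures, 0 were called under every alternative, leave-one-out fits included (0 to 0). The Traf3 call was lost in 8 of 22 alternatives with macrophages and tumor and in 11 of 22 with macrophages, and the Bcl2 call with macrophages in 11 of 22. Over all genes, against 138, 138 and 24 calls in the 3 comparisons, median centring gave 28, 37 and 0, the block 111, 96 and 10, only the 2 groups 189, 73 and 0, the t-test 177, 80 and 0, Benjamini-Hochberg 204, 226 and 62, the trend 178, 173 and 66, quality weights 280, 301 and 131 (that fit stopped short of convergence) and voom 215, 199 and 70. Leaving out macrophages replicate 2 gave 223, 170 and 34. The split of higher and lower calls, 109 to 29 with macrophages and tumor and 89 to 49 with macrophages, was 13 to 15 and 7 to 30 after median centring, 72 to 68 and 68 to 68 after quantile normalization and 80 to 48 and 83 to 56 after total scaling. With the block, the calls of Tnfrsf1a in both comparisons with OT-1 alone, of Tnfsf10 with macrophages and tumor and of Nfkb2 and Xaf1 with macrophages were also lost (adjusted p of 0.0674 to 0.103). No label states whether same-numbered samples share a mouse or a batch. The deviations of same-numbered samples correlated from −0.37 to 0.46 over pairs of groups. With 3 samples per group, whose deviations from the group mean are tied to each other, these values cannot decide whether the samples were paired.

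These values changed sign. Against OT-1 alone with macrophages and tumor, after median centring, quantile normalization and total scaling, Casp8 was −0.37, −0.14 and −0.0714 and Fadd −0.45, −0.30 and −0.14. With macrophages, after median centring, Casp8 was −0.65, Fas −0.0717, Nfkb2 −0.17, Tnfrsf1b −0.58 and Fadd −0.46, and after quantile normalization Casp8 was −0.0187, Fas −0.0781 and Fadd −0.37; Traf2 was 0.0404 with quality weights. Between the co-cultures, after quantile normalization and total scaling, Bcl2l1 was −0.11 and −0.16, Bax −0.0204 and −0.0211, Casp8 −0.13 and −0.0811, Traf2 −0.16 and −0.11 and Traf3 −0.0511 and −0.16. There, Fas was −0.0711 after total scaling, Bid 0.10 after median centring and 0.0206 with voom, Bcl2l1 −0.0073 with quality weights and −0.0515 with voom, and Traf2 −0.063 with quality weights. Leaving out 1 sample moved Fadd between −0.0017 and 0.11 with macrophages and tumor and between −0.0217 and 0.36 with macrophages, and between the co-cultures moved Bcl2l1 between −0.06 and 0.07, Bid between −0.18 and 0.0167, Fas between −0.24 and 0.64, Traf2 between −0.0133 and 0.11 and Traf3 between −0.0767 and 0.0633. Apart from Nfkb2, none of these was called on the deposited scale. The causes were not tested. The depth of macrophages replicate 2 limits Fas most, with a counting error of 17.7% in that sample.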
